A study of Mus musculus with 4 samples.

Results

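The genes described here build the machinery that brings proteins into mitochondria and folds or degrades them there. They are the genes whose annotated symbol begins with Tomm or Timm, together with Samm50, Chchd4, Gfer, Hspd1, Hspe1, Hspa9, Grpel1, Grpel2, Pmpca, Pmpcb, Lonp1, Clpp, Clpx and Trap1. Each was taken from probe sets that list a single gene, and where a gene had more than 1, the brightest on average over the 4 arrays stood for it. This gave 38 of 18193 measured genes: 8 with Tomm symbols, 16 with Timm symbols and 14 others. Dnajc19, Tomm5 and Tomm6 also met the rule by name, but every probe set of theirs listed a second gene, so they are given separately.

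The arrays measured RNA of crypt epithelium from the mouse jejunum, with 2 arrays from Yy1 knockout mice and 2 from control mice, all under the strain label C57BL/6J enriched. Intestinal stem cells and their dividing progeny sit in the crypts. The knockout mice carried floxed Yy1 alleles (YY1f/f) and Vil-Cre-ERT2, a tamoxifen-activated Cre driven by the Villin promoter, which acts in the intestinal epithelium and not in other cell types of the gut wall. Tamoxifen was given for 4 days. The genotype of the control mice, the age of the animals and whether controls received Cre-ERT2 or tamoxifen were not given clearly in the sources used here, so those effects and the loss of Yy1 cannot be told apart. The titles call the replicates biological, without saying whether each array is 1 animal, so p-values measure the spread between these arrays. Yy1 itself read 1051 and 1006 in the control arrays and 140 and 142 in the knockout arrays.

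Nearly all mitochondrial proteins are made in the cytosol and enter through the TOM complex, the gate of the outer membrane. From there, small TIM chaperones escort hydrophobic proteins across the intermembrane space, the TIM22 complex inserts carriers into the inner membrane, and the TIM23 complex with its ATP-driven motor pulls presequence proteins into the matrix. Matrix peptidases then remove the presequence, and chaperonins and proteases fold or destroy what arrives. In intestinal crypts, whose cells divide continually, mitochondria must be enlarged by import in each cycle.

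Called higher in knockout crypts were 6 of 8 genes with Tomm symbols and 4 of 7 small TIM chaperones. So were 4 of 8 genes grouped with the inner membrane translocases and 2 of 3 of outer membrane insertion and the disulfide relay. The import motor had 1 called gene of 4, matrix folding and matrix proteolysis 1 of 3 each, and the processing peptidase 0 of 2. The difference between these small groups was not tested. A gene was called where the adjusted p of limma, Benjamini-Hochberg over all genes, was under 0.05. Of the 38 genes, 19 were called higher, where 13.4% of all genes were, and 0 were called lower, where 11.0% of all genes were; in either direction the share over all genes was 24.4%. The median log2 difference, knockout minus control on log2(intensity + 16), was 0.31 for the 38 genes and 0.01 for all genes, and it was above 0 in 29 of the 38 and in 52.0% of all genes. When only genes above the median level were fitted, 18 of 36 members were called higher, against 22.0% of those genes, and 3 lower (Samm50, Tomm40l and Timm8b), against 17.3%. Called members rose between 1.27-fold and 1.77-fold, with adjusted p by limma between 0.00299 and 0.0478. At an unadjusted p under 0.05 by limma, 23 members were higher and 3 lower, where 6445 of all 18193 genes passed in either direction. Both knockout arrays lay above both control arrays in 26 of the 38 genes and below both in 6, against 32.7% and 29.3% of all genes.

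The count of called genes depends on single arrays. It was 8 without control replicate 1, 5 without control replicate 2, 8 without knockout replicate 1 and 16 without knockout replicate 2, while the share of all genes called higher was 7.29%, 6.36%, 8.14% and 12.7%. Timm9, Timm10, Timm13, Timm21 and Tomm34 were called in all 14 alternative settings that were run. They are also the 5 genes called without control replicate 2, so each of the other 14 called genes lost its call there. Over the 14 alternative settings, Tomm40 was called in 13 and Tomm20 in 12. Gfer, Timm8a1, Timm23, Tomm22, Tomm70a and Trap1 were each called in 11. Chchd4, Clpx and Hspa9 were each called in 10, Timm29 in 9 and Timmdc1 in 6. Tomm20l was called in 8 of the 13 settings that included it. Knockout replicate 1 exceeded knockout replicate 2 in 16 of the 19 called genes. The median difference of these 19 genes from the control mean was 0.53 in knockout replicate 1 and 0.45 in knockout replicate 2.

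**Figure D1:**
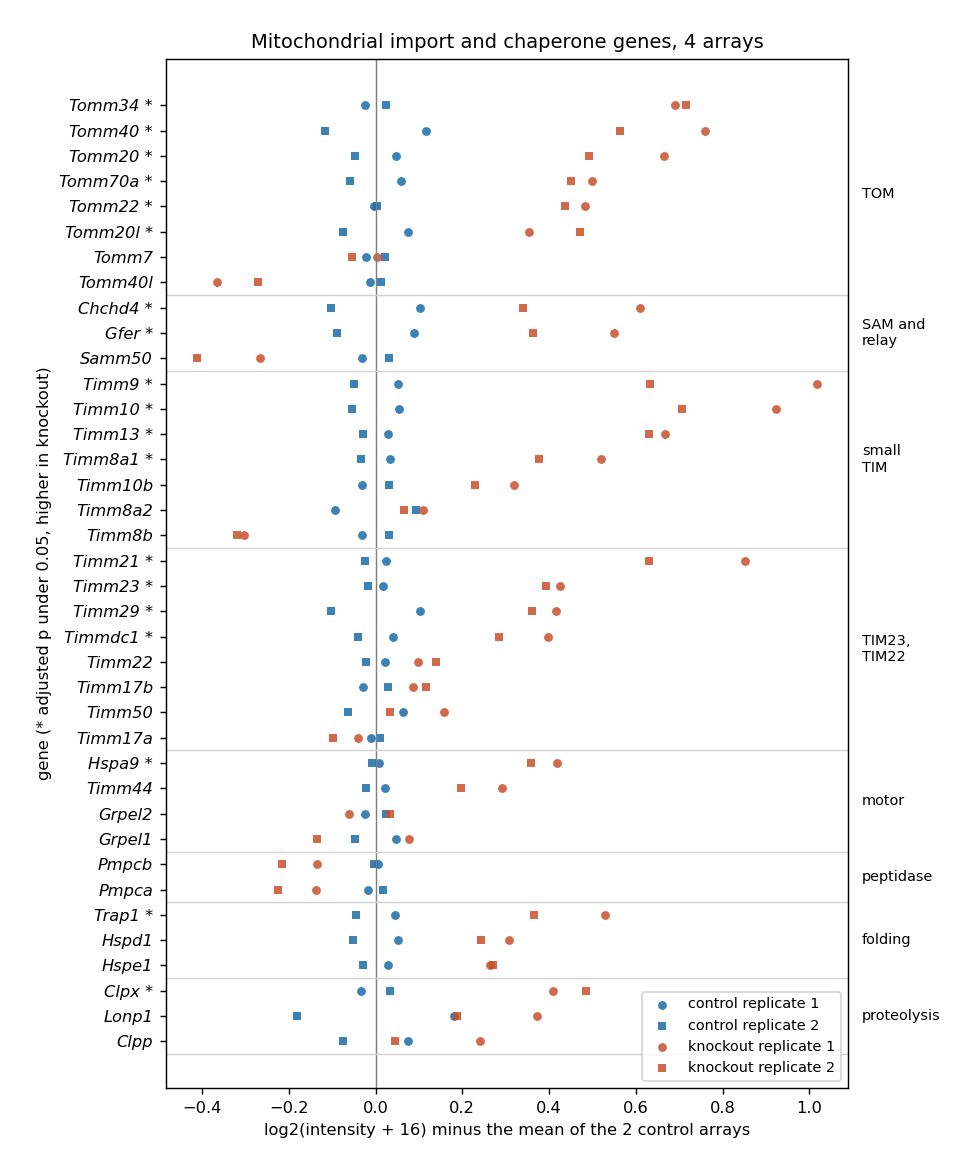
Each row is 1 of the 38 genes, grouped by role, and each point is 1 array as log2(intensity + 16) minus the mean of the 2 control arrays (blue, control; orange, knockout; circles, replicate 1; squares, replicate 2). The 19 starred genes were called higher by limma, and in each of them both knockout points lie to the right of both control points, while Samm50, Tomm40l, Timm8b, Pmpca, Pmpcb and Timm17a have both knockout points on the left.

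Other features of the samples moved with these genes. Of 11 measured enterocyte markers 8 were called lower by limma, against 11.0% of all genes, and 0 higher. Their summed intensity was 81322 to 82765 in controls and 43021 to 60253 in knockouts. Of 11 cell cycle markers 8 were called higher, against 13.4% of all genes, with sums of 17543 to 17640 and 24072 to 25037. In bulk samples, fewer cells of a type and less RNA per cell cannot be told apart. For Gapdh, whose control probe sets report on RNA quality, the 3' end exceeded the 5' end on the log2 scale by 1.40 to 1.44 in controls and 1.65 to 1.71 in knockouts. For Actb, the other such control gene, the excess was 0.24 to 0.28 in controls and 0.29 to 0.33 in knockouts. Of 10 general epithelial markers 2 were called lower, Cdx2 (-0.39 ± 0.09) and Vil1 (-0.53 ± 0.15), with sums of 58012 to 59378 and 48881 to 55315. Among these 10 markers, 8 had both knockouts below both controls, against 29.3% of all genes. Of 11 immune markers 2 were lower, with sums of 9416 to 9849 and 8834 to 9731. Lyz2 made up most of these sums, and without it they were 1866 to 2003 in controls and 1550 to 1755 in knockouts, which did not overlap. Among single genes 29.3% had both knockouts below both controls, and no such share was computed for sums. Of 10 mesenchymal markers 2 were lower, with sums of 1580 to 1781 and 1374 to 1536, and of 6 endothelial markers none was called, with sums of 549 to 565 and 562 to 619. Shares called lower of 2 in 10 or 11 stand beside 11.0% of all genes. No marker was at 0, and Tek was below background in all 4 arrays. The part of these shifts in the results that follow was not tested.

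Promoter letters were read for 33 of the 38 genes, in 36 windows of RefSeq's assembly GRCm38.p6 that span 250 bases before to 50 bases after a start site. Timm21, Hspa9, Tomm7, Grpel2 and Tomm40l had no entry. The first sequence is shown because Hspd1 and Hspe1, the genes of the mitochondrial chaperonin and its lid, are read in opposite directions from it, and their log2 differences were alike. It is the 215 bases between the Hspe1 start site and 1 Hspd1 start site, at chr1:55087933-55088147, written on the plus strand, from which Hspe1 is read to the right. Another Hspd1 window, at chr1:55088194-55088493, has a start site beyond that of Hspe1 and was not used for this sequence. Capitals mark letters that fit a heat shock element, searched as the blocks TTC, GAA and TTC with 2 free bases between each and the next, on both strands, which was found with 2 overlapping matches.
Hspd1-Hspe1: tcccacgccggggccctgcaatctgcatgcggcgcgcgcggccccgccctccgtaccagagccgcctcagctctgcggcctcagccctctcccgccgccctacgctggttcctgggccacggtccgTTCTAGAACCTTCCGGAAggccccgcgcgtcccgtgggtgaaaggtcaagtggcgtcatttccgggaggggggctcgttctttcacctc

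The heat shock letters were in 3 of the 36 windows (8.33%) and in 0.603% of all 32851 windows in the table. The windows of the Hspd1 and Hspe1 start sites used above overlap by 285 bases, so 2 of the 3 are the same stretch, and the other was in front of Timm9. A YY1-like motif, AANATGGC on either strand, was in 3 windows as well (8.33%, against 6.05% of all windows). These belong to Samm50, Timm44 and Timm50, none of which was called. They are shown because Yy1 is the deleted gene, from 60 bases before to 30 bases after the start site, on the strand of the gene, with the motif in capitals. Samm50 lies at chr15:84192180-84192269 on the plus strand, Timm44 at chr8:4275876-4275965 and Timm50 at chr7:28312017-28312106, both on the minus strand.
Samm50: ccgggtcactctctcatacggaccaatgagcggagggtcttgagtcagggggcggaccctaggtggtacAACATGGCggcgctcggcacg
Timm44: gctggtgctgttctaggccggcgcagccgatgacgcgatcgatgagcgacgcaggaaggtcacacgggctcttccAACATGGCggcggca
Timm50: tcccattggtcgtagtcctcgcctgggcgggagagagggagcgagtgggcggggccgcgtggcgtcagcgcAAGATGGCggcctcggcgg

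In each of these 3 sequences the motif starts 10 to 16 bases after the start site. An ETS-type motif, CCGGAAG on either strand, was the most frequent of those searched: it was in 17 of 36 member windows (47.2%) and in 8.86% of all windows. By gene, 16 of 33 members held it (48.5%), against 15.0% of 14452 array genes with a window. It was found in 7 of 17 called and 9 of 16 uncalled members, and inside the heat shock letters between Hspd1 and Hspe1 the motifs overlap. The NRF1 motif, searched as GCGC, 2 free bases and GCGC, which reads the same on both strands, was in 6 of 36 member windows (16.7%, against 6.23% of all windows), of which 3 belong to Hspd1 and Hspe1. By gene it was in 5 of 33 members (15.2%), against 11.4% of array genes. The amino acid response motif TGATGNAA on either strand was in 0 of 36 and 3.97%. The sequences below are those of the 4 called members with the smallest p that held the ETS motif within 100 bases before to 30 bases after the start site, with the motif in capitals. Tomm34 lies at chr2:164071140-164071269 on the minus strand, and Timm10 at chr2:84826921-84827050, Tomm22 at chr15:79670768-79670897 and Tomm70a at chr16:57121614-57121743 on the plus strand.
Tomm34: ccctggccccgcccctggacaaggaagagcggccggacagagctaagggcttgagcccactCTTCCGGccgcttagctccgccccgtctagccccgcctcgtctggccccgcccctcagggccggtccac
Timm10: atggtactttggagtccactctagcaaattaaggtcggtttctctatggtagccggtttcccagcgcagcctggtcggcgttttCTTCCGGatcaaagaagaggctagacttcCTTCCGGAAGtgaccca
Tomm22: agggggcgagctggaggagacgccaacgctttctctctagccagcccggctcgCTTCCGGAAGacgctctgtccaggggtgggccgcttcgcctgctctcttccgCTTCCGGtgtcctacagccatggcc
Tomm70a: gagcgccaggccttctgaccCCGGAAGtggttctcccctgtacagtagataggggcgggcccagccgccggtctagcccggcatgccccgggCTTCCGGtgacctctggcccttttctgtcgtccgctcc

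Of the 8 genes with Tomm symbols, 6 were called higher, and the median log2 difference of the 8 was 0.47. The 6 include Tomm34, which is cytosolic, and Tomm20l, which is near background, both described below. Tomm40, the pore of the TOM complex, read 480 and 406 in control arrays and 758 and 660 in knockout arrays, a log2 difference of 0.66 ± 0.12 (SE, n = 2 arrays per group here and below). Its knockout values stand clear of the controls, although each group spans about as much as the other. Without control replicate 2 it missed the threshold, at an adjusted p by limma of 0.0630. Tomm20, a receptor for presequences, read 1755 and 1643 in controls and 2704 and 2395 in knockouts (0.58 ± 0.11). It has 6 probe sets, all with positive differences between 0.32 and 1.17, of which 5 were called when all probe sets were fitted. Tomm20 missed the threshold without control replicate 2 (adjusted p by limma 0.0637) and with its dimmest probe set (0.0959).

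The receptor Tomm22, which docks Tomm20 to the pore, read 3123 and 3139 in controls and 4384 and 4244 in knockouts (0.46 ± 0.09). Tomm70a, the receptor that takes carrier precursors from cytosolic chaperones, read 3629 and 3349 and then 4931 and 4773 (0.47 ± 0.10). In both genes the groups were far apart relative to the gap within each group, and every probe set of both pointed the same way. Tomm34, a cytosolic partner of the chaperones Hsp70 and Hsp90 that carries a TOM name, read 612 and 633 in controls and 1014 and 1032 in knockouts, which gave the smallest adjusted p of the 38 genes (0.70 ± 0.09, adjusted p by limma 0.00299). Its replicates nearly coincided in each group.

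Tomm20l, a paralog of Tomm20, was dim: it read 48.8 and 42.4 in controls and 62.6 and 69.3 in knockouts, where the median of bacterial control probe sets, a mark of background, was 31.9 to 35.6. Its log2 difference of 0.41 ± 0.11 is a small shift near background and was not called with a pseudocount of 64 (0.25, adjusted p by limma 0.0596). Tomm7, a small subunit that steadies the complex, read 3377 and 3485 in controls and 3438 and 3301 in knockouts. Its groups overlapped, and the direction of the difference (-0.03 ± 0.10) turned to 0.01 with quantile normalization. Tomm40l, a paralog of the pore gene, read 774 and 788 in controls and 603 and 645 in knockouts (-0.32 ± 0.10, adjusted p by limma 0.0536). The other probe set of Tomm40l gave 0.18 ± 0.13, so its direction depends on the probe set.

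Genes of the other outer membrane and intermembrane space machines differed among themselves. Chchd4, the oxidoreductase that traps cysteine-rich proteins in the intermembrane space, rose from 1550 and 1341 to 2209 and 1830 (0.48 ± 0.13). Its call was lost with a pseudocount of 1 (adjusted p by limma 0.0578) and without control replicate 1 (0.0655), control replicate 2 (0.201) or knockout replicate 1 (0.154). Gfer, the sulfhydryl oxidase that re-oxidises Chchd4, rose from 949 and 838 to 1312 and 1151 (0.46 ± 0.12), with both of its probe sets called. These 2 enzymes form the disulfide relay, and their values moved by about the same amount. Samm50, the core of the complex that folds beta-barrel proteins into the outer membrane, read 3438 and 3589 in controls and 2919 and 2636 in knockouts (-0.34 ± 0.10, adjusted p by limma 0.0519). Both knockout arrays were below both controls, just short of the threshold, and it passed with a pseudocount of 64 (adjusted p by limma 0.0298), with only genes above the median level (0.0396), with each array scaled to the same median (0.0481) and with a trended and robust prior (0.00937). Its other probe sets gave -0.33 ± 0.10 and -0.04 ± 0.10.

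Of the small TIM chaperones 4 of 7 were called, with a median log2 difference of 0.45 over the 7. The largest differences among the 38 genes were those of Timm9 and Timm10. Timm9 and Timm10, which form the main ring-shaped chaperone that guides carriers, rose together. Timm9 read 367 and 341 in controls and 733 and 557 in knockouts (0.83 ± 0.14, 1.77-fold), and its other probe set gave 0.60 ± 0.14. Timm10 read 1318 and 1220 in controls and 2419 and 2079 in knockouts (0.82 ± 0.11, 1.76-fold). In both genes knockout replicate 1 was the highest array and the groups did not overlap.

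Timm13, a partner of the Timm8 proteins, rose from 1016 and 976 to 1592 and 1550 (0.65 ± 0.10). Timm8a1, the mouse gene whose human counterpart is mutated in a deafness and dystonia syndrome, rose from 3884 and 3713 to 5448 and 4937 (0.45 ± 0.10), and by 0.91 ± 0.12 with its dimmer probe set. Timm8b, the related gene, read 1356 and 1417 in controls and 1120 and 1107 in knockouts (-0.31 ± 0.09, adjusted p by limma 0.0528). Its groups were separate, and it passed with a pseudocount of 64 (adjusted p by limma 0.0250), with quantile normalization (0.0418) and with 4 other settings. Timm10b, which holds the Timm9 and Timm10 ring at the TIM22 complex, had 4 probe sets between 0.27 and 0.44 and was not called. Timm8a2 read 17.2 to 22.2 over the 4 arrays, below the background mark, so no change can be read from it.

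Among the genes grouped with the inner membrane translocases, 4 of 8 were called, including Timmdc1, which is listed there only by its symbol. Timm21, which links TIM23 to the TOM complex and to the respiratory chain, rose from 682 and 660 to 1224 and 1048 (0.74 ± 0.11). Timm23, the channel that gives the complex its name, rose from 2694 and 2632 to 3584 and 3503 (0.41 ± 0.09). Its replicates lay close together in both groups, and the 2 groups were wide apart. Timm29, a subunit of the TIM22 complex, rose from 1801 and 1562 to 2243 and 2160 (0.39 ± 0.11), with both probe sets called. Its call was lost with a pseudocount of 1 (adjusted p by limma 0.0624) and with any 1 array left out (0.0636 to 0.239).

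Timmdc1 is listed by its symbol but is known as an assembly factor of respiratory complex I. It read 1017 and 961 in controls and 1307 and 1207 in knockouts (0.34 ± 0.10, adjusted p by limma 0.0478), and it was called in 6 of the 14 alternative settings. It missed the threshold with each array scaled to the same median (0.0537), with a pseudocount of 1 (0.0717), with quantile normalization (0.0534), with the dimmest probe set per gene (0.0655) and with any 1 array left out. The central subunits that stand beside Timm23 in the same machine did not pass the test. Timm50, the receptor of the complex, read 371 and 338 in controls and 397 and 363 in knockouts (0.10 ± 0.10), so its groups overlapped. Timm17a had a log2 difference of -0.07 ± 0.09 and Timm17b 0.10 ± 0.09. Timm22, the carrier channel of the separate TIM22 complex, was not called either (0.12 ± 0.09). Another probe set of Timm17b gave -0.09 and one of Timm22 gave -0.01.

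In the import motor, 1 of 4 genes was called. Hspa9, the matrix Hsp70 that pulls proteins in, rose from 4006 and 3962 to 5331 and 5114 (0.39 ± 0.09). Of its 5 probe sets 4 were positive and 2 were called, and a dim one gave -0.15 ± 0.10. Timm44, which tethers Hspa9 to the channel, read 660 and 640 in controls and 799 and 747 in knockouts (0.24 ± 0.10, adjusted p by limma 0.120). Its knockout arrays were both higher without passing. The nucleotide exchange factors that recharge Hspa9 lay at 0 on this scale within their error, with -0.03 ± 0.11 for Grpel1 and -0.01 ± 0.10 for Grpel2, and their sign changed between settings. The other probe set of Grpel2 gave -0.29 ± 0.10.

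Pmpca and Pmpcb encode the 2 subunits of the peptidase that cuts off the presequence. Neither was called, with log2 differences of -0.18 ± 0.10 for Pmpca and -0.17 ± 0.10 for Pmpcb. All 4 of their probe sets had negative differences, and in the probe sets used both knockout arrays were below both controls.

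Of the 3 folding genes of the matrix, Trap1, a mitochondrial Hsp90, rose from 1082 and 1017 to 1520 and 1356 (0.45 ± 0.11), and by 0.62 ± 0.11 with its other probe set. Hspd1, the chaperonin, read 7205 and 6708 in controls and 8604 and 8228 in knockouts (0.27 ± 0.10, adjusted p by limma 0.0896). Hspe1, its lid, read 6022 and 5777 and then 7085 and 7123 (0.27 ± 0.09, adjusted p by limma 0.0853). For both genes of the shared promoter the groups were separate and the test was missed in the probe sets used. Both passed with a pseudocount of 64, at adjusted p by limma of 0.0449 and 0.0366, and with a trended and robust prior, at 0.00604 and 0.00520. Hspe1 alone also passed with the mean of all its probe sets (adjusted p by limma 0.0356) and with its dimmest probe set (0.0480). That probe set gave 0.37 ± 0.10 and was called when all probe sets were fitted (adjusted p by limma 0.0424).

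Of the 3 genes of matrix proteolysis, 1 was called. Clpx, the unfoldase that feeds the protease Clpp, rose from 440 and 462 to 604 and 638 (0.45 ± 0.10), while its dimmer probe set gave -0.01 ± 0.11. Clpp read 928 and 836 in controls and 1044 and 909 in knockouts (0.14 ± 0.11), with overlapping groups. Lonp1, an ATP-dependent protease that also binds mitochondrial DNA, read 672 and 520 and then 770 and 676 (0.28 ± 0.14, adjusted p by limma 0.217), and the gap between its 2 controls was larger than that between any knockout and the nearer control. The rise of Clpx therefore rests on 1 of 2 probe sets.

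**Figure D2:**
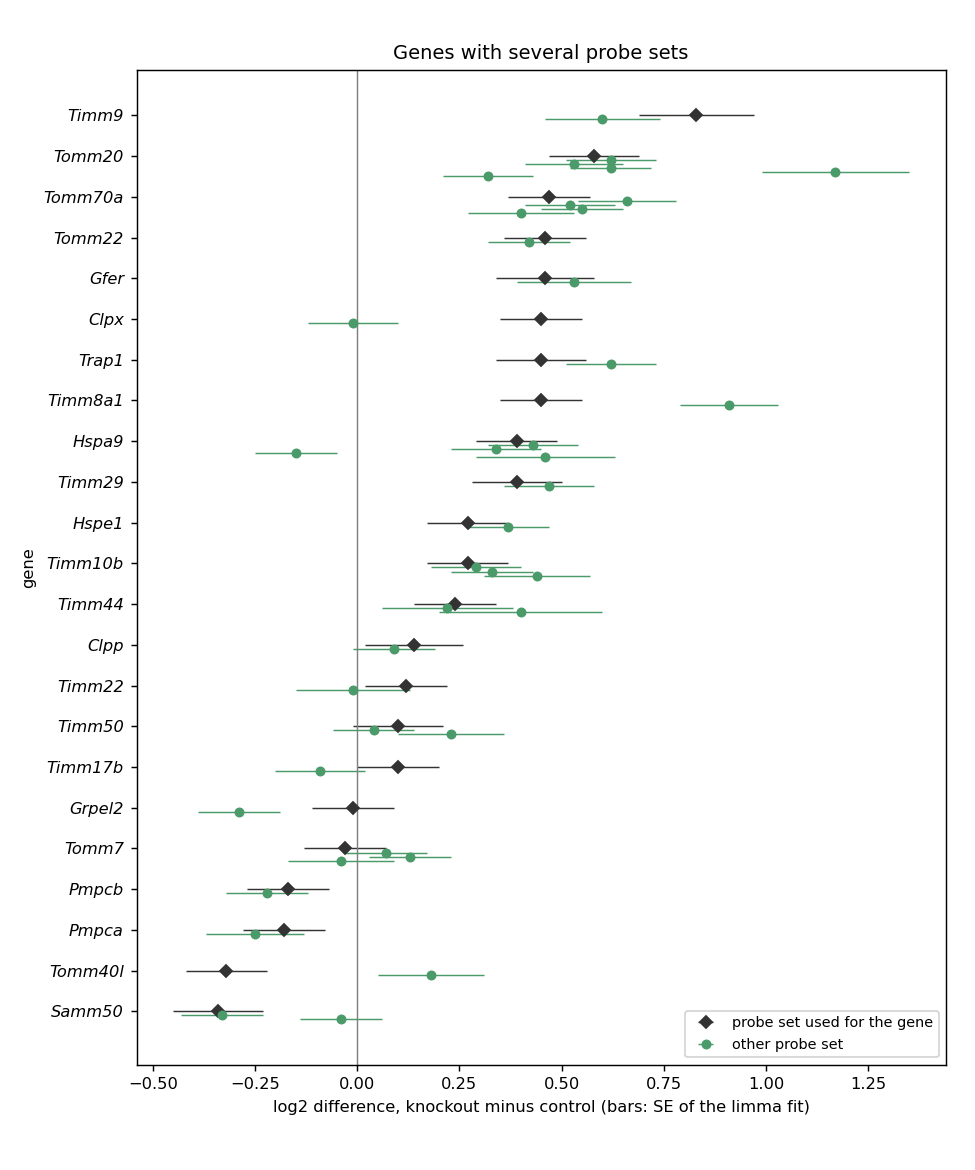
Log2 difference, knockout minus control, for every probe set of the 23 genes that have more than 1 (dark diamonds, the probe set used for the gene; green circles, the others; bars, SE of the limma fit over all probe sets, n = 2 arrays per group). Among the 10 of these genes that were called, all probe sets are positive in 8, and the exceptions are 1 probe set of Clpx at -0.01 and 1 of Hspa9 at -0.15.

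Fitted one by one, 33 of the 78 probe sets of these genes were called higher (42.3%) and 0 lower, where 10.9% of all probe sets were higher and 9.09% lower. Probe sets of Samm50, Tomm40l, Timm8b and Grpel2 were lower at an unadjusted p under 0.05 by limma. Several probe sets were present for 10 of the called genes, and in 9 of these a further one was also called higher. In this larger fit 1 gene, Timmdc1, fell short of its call. Probe sets that list a second gene also gave values for Tomm5, a small TOM subunit, which read 1778 and 1769 in controls and 2879 and 2853 in knockouts (0.69 ± 0.10, adjusted p by limma 0.00389), shared with Gm8069. For Tomm6, shared with Prickle4, the 2 probe sets gave 0.66 ± 0.11 and 0.37 ± 0.14. For Dnajc19, the J protein of the motor, shared with a pseudogene, 3 probe sets gave 0.20 to 0.40. Signal from the second gene cannot be told apart in these 3 cases.

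Partner genes were compared within each array as log2 ratios, which shows unequal change and not which partner moved. Of 8 pairs, 4 had ratios that did not overlap between groups, 2 in each direction. Among single genes 32.7% lay wholly higher and 29.3% wholly lower in knockouts, and no such share was computed for ratios. The ratio of Tomm40 to Tomm40l was -0.67 and -0.93 in controls and 0.32 and 0.03 in knockouts, a shift of 0.98, and of 0.49 with the other Tomm40l probe set, which is itself positive. Timm8a1 over Timm8b went from 1.51 and 1.38 to 2.27 and 2.14, a shift of 0.76, and of 1.22 with the dimmer Timm8a1 probe set. Smaller shifts were seen for Clpp over Clpx (-0.30) and Timm17a over Timm17b (-0.17). The direction of both turned with other probe sets, over which the shifts reached 0.15 and 0.02. The exact two-sided permutation p was 0.33 for each of the 4, the smallest that 2 arrays against 2 can give, so no pair can pass a threshold of 0.05, with or without adjustment over the 8.

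The remaining pairs had overlapping ratios. Hspd1 over Hspe1 read 0.26 and 0.22 in controls and 0.28 and 0.21 in knockouts, and Pmpca over Pmpcb read -0.55 and -0.51 and then -0.53 and -0.54. Each of these pairs works as a single enzyme or chamber, and the ratio shifted by 0.01 and -0.01. Over all their probe sets the shifts were -0.09 to 0.01 for Hspd1 over Hspe1 and -0.07 to 0.04 for Pmpca over Pmpcb. Clpp and Clpx also act together, and their ratio shifted by -0.30, or by up to 0.15 with other probe sets. Whether shared work goes with a steady ratio was not tested. Grpel1 over Grpel2 shifted by -0.01, or by 0.27 with the other Grpel2 probe set, and Tomm20 over Tomm20l by 0.17 (exact permutation p = 0.667), with -0.10 to 0.76 over the Tomm20 probe sets.

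**Figure D3:**
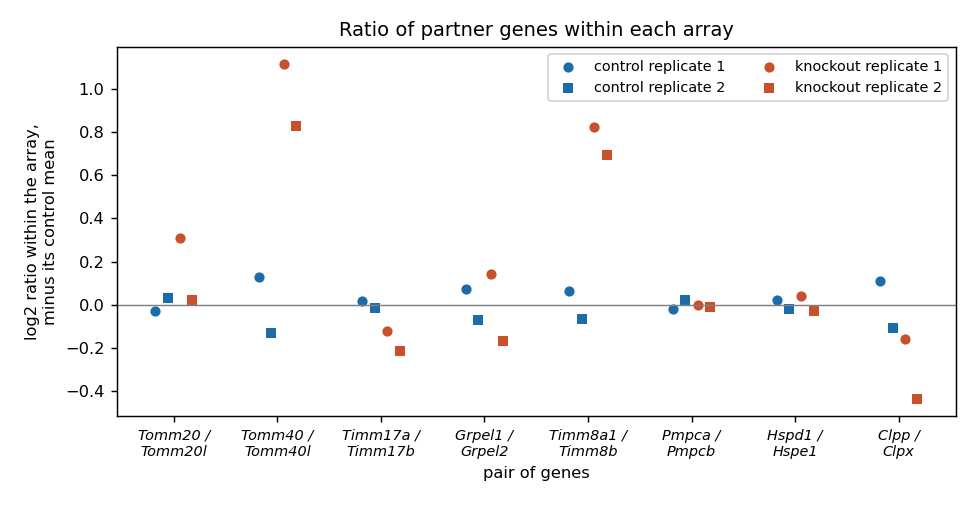
Log2 ratio of the 2 genes of a pair within each array, minus its mean over the 2 control arrays (blue, control; orange, knockout; circles, replicate 1; squares, replicate 2). The ratios of Tomm40 to Tomm40l and of Timm8a1 to Timm8b lie higher in both knockout arrays, by 0.98 and 0.76 on average, while those of Hspd1 to Hspe1 and Pmpca to Pmpcb stay near 0.

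Other parts of the same pathway were read from lists of genes that are not among the 38. Of 19 further genes of import and of the cristae scaffold, 7 were called higher (36.8%, against 13.4% of all genes) and 1 lower (5.26%, against 11.0%). Chchd6 (0.84 ± 0.09), a subunit of the scaffold, the peptidase Xpnpep3 (1.07 ± 0.13), which trims imported proteins, and Dnajc11 (0.73 ± 0.12), an outer membrane J protein, rose. Apool, another scaffold subunit, fell by 0.54 ± 0.10. Of 11 other mitochondrial proteases and their scaffolds, Stoml2 (0.74 ± 0.10) and the stress-activated protease Oma1 (0.60 ± 0.11) rose and 0 fell, a share of 18.2% that is near that of all genes. Afg3l1 and Pitrm1 came next, at 0.27 ± 0.10 and 0.24 ± 0.10, and were not called.

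Further lists held chaperones of other compartments, and the difference between these lists was not tested. Of 20 cytosolic chaperones 10 were called higher and 0 lower. They included all 8 subunits of the chaperonin that folds actin and tubulin, a subset picked after its values were seen, whose median log2 difference was 0.52, led by Cct5 (0.78 ± 0.10), Cct8 (0.75 ± 0.10), Cct4 (0.59 ± 0.10) and Cct3 (0.57 ± 0.11). Of the 12 other cytosolic chaperones 2 were called, Stip1 and Hspa4, a share of 16.7% that is near the 13.4% of all genes. Of 12 chaperones of the endoplasmic reticulum 0 were called, against 24.4% of all genes in either direction. At an unadjusted p under 0.05 by limma, which 6445 of all 18193 genes met, there was 1. That was Dnajb9 at -0.28 ± 0.09, followed by Hyou1 at 0.21 ± 0.12, Pdia6 at 0.13 ± 0.10 and Canx at -0.10 ± 0.10. Of 7 measured regulators tied to the mitochondrial unfolded protein response, Atf5, a transcription factor that is itself kept inactive by import, rose from 252 and 253 to 406 and 440 (0.71 ± 0.10). A share of 1 in 7 (14.3%) is near that of all genes. The rest were not called: Eif2ak1 stood at -0.14 ± 0.09, Fgf21 at 0.17 ± 0.14 and Cebpb at -0.15 ± 0.13.

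**Figure D4:**
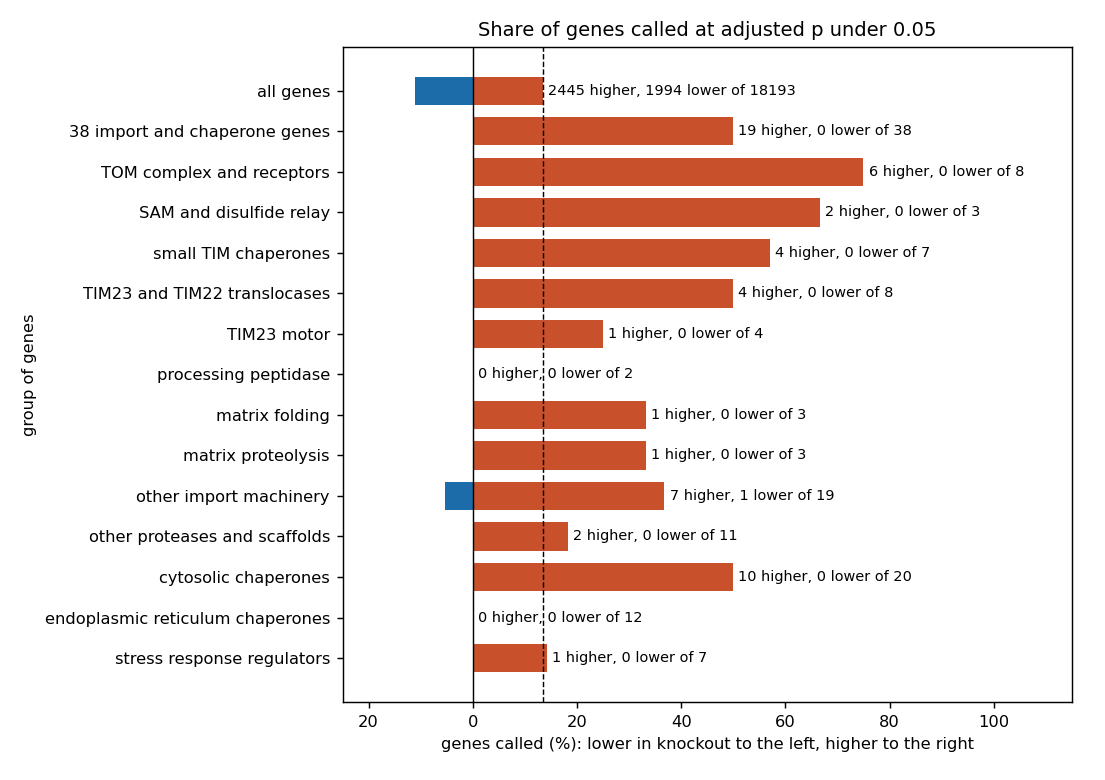
Share of genes called by limma at an adjusted p under 0.05 in each group, higher in knockout to the right and lower to the left, with counts beside the bars; the dashed line is the 13.4% of all genes that were called higher. Genes with Tomm symbols (6 of 8, including the cytosolic Tomm34), small TIM chaperones (4 of 7) and cytosolic chaperones (10 of 20, of which 8 are chaperonin subunits) lie to the right of it. The processing peptidase and the endoplasmic reticulum chaperones have no called gene, and groups of 2 to 8 genes give coarse shares.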

How the data were processed

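The deposited values are linear intensities, 1 per probe set and array, as made by the authors. Per the labels, Affymetrix arrays were hybridised with biotin-labelled RNA. Summary method and normalization: not given in the sources used here. Array medians were 139 to 143, so values were not rescaled. Number of arrays limits precision.

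Of 45101 probe sets, 34945 list 1 gene (platform annotation, symbols updated through a RefSeq table), giving 18193 genes. Per gene the probe set with the highest mean log2 value was kept. Background is the median of 27 Bacillus control probe sets.

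limma 3.58.1 in R 4.3.3 (lmFit, eBayes) was run on log2(intensity + 16), knockout against control, with Benjamini-Hochberg adjustment over all genes. Fold changes on this scale understate changes of dim genes. The fit was tested on simulated data. Every member is named, and called members and 12 core genes have their values per array. From other lists up to 4 genes with the smallest p are named, plus Cdx2, Vil1, Lyz2, Tek, Stip1 and Hspa4, chosen after their values were seen. Members and lists were chosen with earlier results of these data known. Protein sequences were not used here.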

Additional observations from a re-analysis of the deposited data

How the results depend on the processing

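Over the settings run on all 4 arrays, 15 to 21 of the genes were called higher, and their median log2 difference was 0.27 to 0.35. With 1 array left out, 5 to 16 were called higher and 0 lower, with a median of 0.28 to 0.39. The count of genes called lower, 0 as reported, was 3 with a pseudocount of 64, 2 with each array scaled to the same median, 2 with quantile normalization, 3 with only genes above the median level (36 of the 38, with 22.0% of 11062 genes called higher), 1 with the mean of all probe sets and 2 with a trended and robust prior. Signs changed for Grpel2 and Tomm7 (each 0.01) with quantile normalization, for Tomm7 (0.03) with the mean of all probe sets, and for Clpx (-0.01), Timm22 (-0.01), Timm17b (-0.09) and Tomm40l (0.18) with the dimmest probe set, where 1 called gene, Clpx, is among them. With 1 array left out Grpel1 ranged from -0.13 to 0.08, Grpel2 from -0.06 to 0.03, Tomm7 from -0.06 to 0.00 and Timm8a2 from 0.00 to 0.18. The cause was not tested. The replicate block called 19 higher and 0 lower, and 2662 and 2219 of all genes, against 2445 and 1994 without the block. Whether arrays of the same number share more than the number is not given. The correlation of their deviations, 0.10, rests on 2 arrays per group and cannot settle it. Choosing probe sets by mean intensity changed no call; this, the pair shifts over other probe sets, the sums without Lyz2 and the split of cytosolic chaperones were chosen after seeing the data. Members near the background mark, Tomm20l and Timm8a2, are limited by signal.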
